A study of Mus musculus with 19 samples.

Results

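The comparison of macroH2A1.1 knockout (KO) with wild-type (WT) kidney rests on 10 of the 19 libraries of the series. They were chosen by the tissue and genotype in their labels. The KO group has 5 libraries, numbered 13, 14, 15, 16 and 18, and the WT group has 5, numbered 19, 20, 22, 23 and 24. The labels do not say what the number stands for, and it was taken here as the mouse. All mice were male, on a C57BL/6J background after at least 10 generations of backcrossing. The KO mice lack alternative exon 6b of the macroH2A1 gene in every cell, because zygotes carrying the floxed exon were treated with Cre protein, and homozygous KO and WT mice came from matings of heterozygotes. The sources used here give no age, and do not state which mice had the standard and which the ketogenic diet. RNA was extracted from homogenized whole kidney and selected for poly(A), so the libraries hold all cell types of the organ, and a smaller number of cells of a type cannot be told apart from less RNA per cell. Of the 26506 genes in the table, 17269 passed a filter on low counts within kidney and were tested.

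MacroH2A1 is a variant of histone H2A that carries a large macrodomain outside the nucleosome. The gene, named H2afy in the annotation used here, makes a pair of proteins from mutually exclusive exons. The macrodomain of macroH2A1.1 binds ADP-ribose and related products of PARP enzymes and sirtuins, and that of macroH2A1.2 does not. The tubules of the kidney depend on mitochondrial respiration for the energy of transport, and macroH2A1.1 has been linked to nuclear NAD use and metabolism in other cells.

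The alternative exons are shown because they define the knockout. On GRCm38, H2afy spans chr13:56073619-56136361 on the minus strand. The exon specific to macroH2A1.1 (exon 6 of transcript H2afy-202, chr13:56088252-56088342) has 91 bases, and that of macroH2A1.2 (exon 6 of H2afy-201, chr13:56089758-56089857) has 100 bases. Both are coding exons, read here 5′ to 3′ on the minus strand, and the capitals mark the 3 last bases, which they share.
exon of macroH2A1.1: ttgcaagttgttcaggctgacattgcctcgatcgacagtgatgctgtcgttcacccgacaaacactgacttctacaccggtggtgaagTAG
exon of macroH2A1.2: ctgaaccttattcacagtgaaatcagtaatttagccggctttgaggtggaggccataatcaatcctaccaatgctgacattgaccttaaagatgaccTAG
The deleted exon makes up 1.34% of the 6809 exonic bases of the gene. A count over the whole gene therefore checks the deletion hardly at all.

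Kidney libraries held between 25919138 and 35131720 counts. The labelled tissue matched its markers: Umod, which encodes the uromodulin of the thick ascending limb, had 906 ± 213 CPM per kb of exon (SD, n = 5) in WT and 865 ± 120 in KO (SD, n = 5), where CPM are counts scaled by TMM to a common library size. Lrp2, the megalin of the proximal tubule, had 98.1 ± 11.5 in WT and 104 ± 17.4 in KO (SD, n = 5 each). Neither gene passed the test (log2 fold changes of -0.07 for Umod and 0.08 for Lrp2, edgeR adjusted p = 0.999 for both). No pair of libraries of 1 group was close enough to be a repeat deposit: the mean chi-square per gene was at least 231 over the 20 pairs.

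Several libraries stood apart from the rest of their group. KO 16 held markers of the adrenal gland: Cyp11b1, which makes corticosterone, had 684 counts there and at most 2 in any other library, Cyp21a1 had 1448 against at most 4, and Th, of the medulla, had 125 against at most 1. The 11 adrenal markers summed to 244 CPM in KO 16 and to between 4.98 and 6.9997 in the other libraries (lowest WT library 5.08). Star alone was above 4 CPM in the other libraries. KO 13 was the highest library for 6 of 10 hepatocyte genes (Alb, Apoa1, Apoa2, Fgb, Ahsg and Mup3) and the lowest for 3 (Ttr, Serpina1a and Apoc3). Alb, albumin, had 41.4 CPM there against 4.86 to 9.49 elsewhere, Mup3 had 6.30 against at most 0.501, and Serpina1a, of a family of similar copies, had 17.1 against 20.8 to 62.4. The library labelled WT 24 had high immediate early genes, with Egr1 at 178 CPM against 8.58 to 28.3 elsewhere. It also lay between the KO libraries and the other WT libraries for H2afy, Unc5a, Cxcl14 and Gm7240, whose values are given with the results. Whether its label is right was not tested, and counts over whole genes cannot check its genotype. It was the WT library closest to KO in 18 of 25 chromosome 13 genes with an edgeR unadjusted p under 0.01. For Rgs14, 1 of those genes, and for Sfi1, it lay within the range of the other WT libraries. Every WT mean, SD and fold change given without further remark includes the library labelled WT 24. Without it the log2 fold change went from -0.58 to -0.65 for H2afy (edgeR adjusted p = 0.00679) and from -2.35 to -2.51 for Unc5a (edgeR adjusted p = 0.000601). For Cxcl14 it went from -1.14 to -1.28 (edgeR adjusted p = 0.00145). These genes were among those that set the library apart, so larger fold changes without it follow from that choice and give no separate support. KO 18 lay at -29.4 on the first principal component, which held 29.8% of the variance of the 500 most variable genes, and the other libraries lay between -6.38 and 9.80. Libraries also differed by gene length: across 14532 genes, which are not independent, the deviation of a library from the median of the others had a Spearman rho with exon length of 0.49 in KO 13, 0.28 in KO 16, 0.22 in the library labelled WT 24 and 0.18 in WT 22, and between -0.26 and -0.01 in the other 6. In KO 13 genes with less than 2560 bases of exon lay at a median of -0.19 (log2) and those with more than 6590 at 0.18. The part of these differences between libraries in the results that follow was not tested, except where a value without a library is given.

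**Figure D1:**
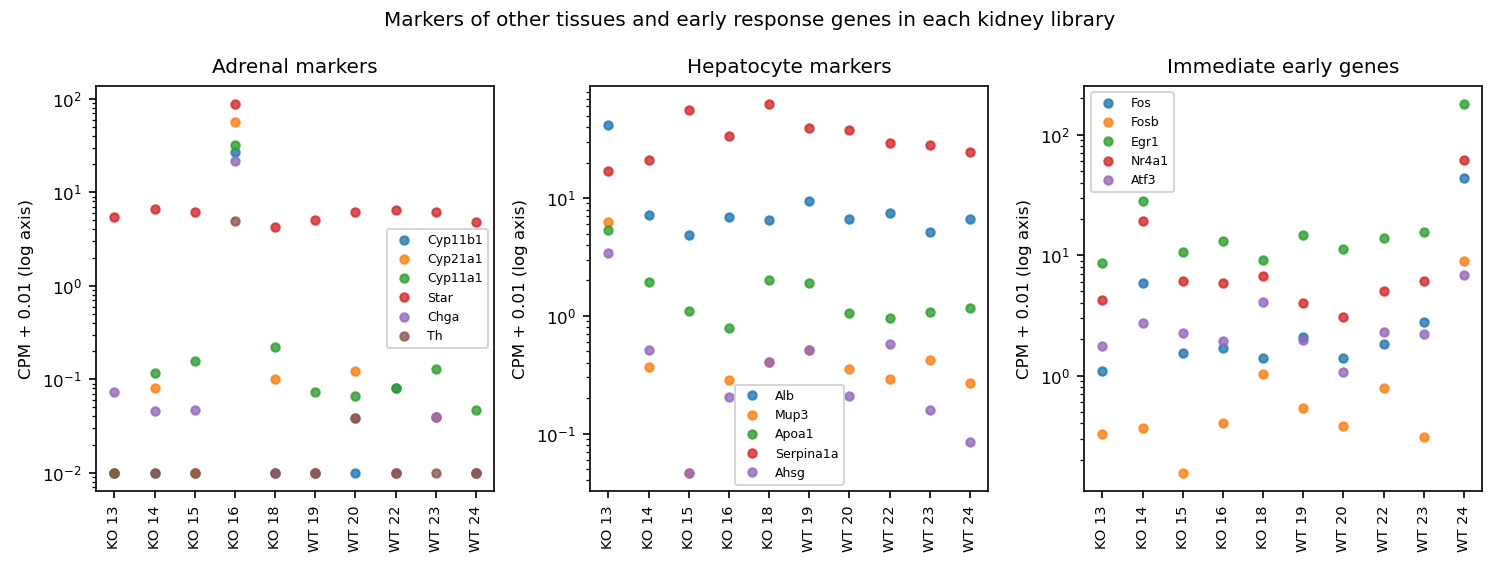
Level of adrenal markers (left), hepatocyte markers (middle) and immediate early genes (right) in each kidney library, as CPM + 0.01 on a log axis, with 1 point per gene and library. Adrenal genes stand out in KO 16, Alb and Mup3 in KO 13, and the immediate early genes in the library labelled WT 24.

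Of all genes tested, 1 passed the edgeR quasi-likelihood test at a Benjamini-Hochberg adjusted p under 0.05, which is 0.00579% of 17269. That gene was Unc5a, a receptor for netrins that guides axons and can trigger cell death when no ligand is bound, and it fell in KO. At an unadjusted p under 0.05 there were 509 genes (2.95%), of which 299 were higher (1.73%) and 210 lower (1.22%) in KO. DESeq2 called 15 genes (0.0869%), 10 higher and 5 lower, and limma voom with sample weights called 7 (0.0405%), 2 higher and 5 lower. Unc5a was the gene common to the edgeR, DESeq2 and voom calls, and 6 of the 7 voom calls were also DESeq2 calls. The median log2 fold change over all genes was 0.0071, and the common biological coefficient of variation was 0.164. Nothing in the labels says that the libraries came from separate animals except the numbers, which were taken here as mice. The p-values therefore reflect only how far these libraries vary.

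In KO, Unc5a had 0.412, 0.501, 0.585, 0.742 and 1.03 CPM in mice 13, 14, 15, 16 and 18. In WT it had 3.79, 3.87, 4.15, 3.26 and 1.76 CPM in mice 19, 20, 22, 23 and 24. Every KO library lay below every WT library, and the library labelled WT 24 was the lowest of its group. The log2 fold change was -2.35 (SE 0.28), with an edgeR adjusted p of 0.00775 and a DESeq2 adjusted p of 1.86e-11. Unc5a passed in all 20 alternative analyses of the kidney comparison, with log2 fold changes from -2.59 to -2.22 and adjusted p of at most 0.0455. Its level was low for the tissue: 0.807 ± 0.229 CPM per kb in WT and 0.157 ± 0.058 in KO (SD, n = 5 each), where its relative Unc5b had 2.54 ± 0.519 in WT. Of the 7 tested netrin receptors and ligands Unc5a alone passed, and the other 6 (Unc5b, Unc5c, Neo1, Ntn1, Ntn3 and Ntn4) had log2 fold changes between -0.06 and 0.11, all with an edgeR adjusted p of 0.999. Unc5a lies at chr13:54949411-55006018, 1.07 Mb from H2afy.

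The 250 bases before the start of Unc5a and of Cxcl14, a chemokine gene 0.152 Mb from H2afy, are shown because both genes lie near the deleted exon and were lower in KO. They come from RefSeq on GRCm38.p6, and the capitals mark matches to the GC box (GGGCGG, or CCGCCC on the other strand).
Unc5a, chr13:54949161-54949410, plus strand: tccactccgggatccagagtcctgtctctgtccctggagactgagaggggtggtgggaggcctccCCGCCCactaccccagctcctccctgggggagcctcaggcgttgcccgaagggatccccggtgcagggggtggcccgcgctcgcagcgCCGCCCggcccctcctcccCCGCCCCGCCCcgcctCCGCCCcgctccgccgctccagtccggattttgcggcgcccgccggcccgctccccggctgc
Cxcl14, chr13:56296552-56296801, minus strand: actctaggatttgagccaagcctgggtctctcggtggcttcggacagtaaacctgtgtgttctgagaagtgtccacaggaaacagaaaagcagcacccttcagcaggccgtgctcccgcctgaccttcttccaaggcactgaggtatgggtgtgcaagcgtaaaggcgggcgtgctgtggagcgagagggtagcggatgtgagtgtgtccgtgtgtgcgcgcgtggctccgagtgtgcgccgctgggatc
The Unc5a window had a GC content of 76.8%, 25 CpG and 5 matches to the GC box, a pair of which overlap. The Cxcl14 window had a GC content of 59.6%, 16 CpG and no match to the GC box, the TATA box (TATAAA), the CCAAT box (CCAAT) or the E-box (CACGTG), each searched on both strands. Among 32851 such windows the median GC content was 52.4% and the median CpG count 6, and 32.7% held a GC box, 12.4% a TATA box, 33.8% a CCAAT box and 6.02% an E-box.

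The knocked-out gene itself had a lower level in KO, as a single count over the whole gene. H2afy had 49.0, 57.3, 57.4, 54.4 and 61.1 CPM in KO 13, 14, 15, 16 and 18. WT 19, 20, 22 and 23 had 90.8, 89.2, 82.4 and 89.1 CPM, and the library labelled WT 24 had 65.6. All KO libraries were below all WT libraries, with the library labelled WT 24 nearer to KO 18 than to the next WT library. The log2 fold change was -0.58 (SE 0.10), which did not pass in edgeR (adjusted p = 0.135) and passed in DESeq2 (adjusted p = 9.14e-05) and in voom (adjusted p = 0.0358). Without the library labelled WT 24 it passed in edgeR as well, but H2afy was among the genes that set that library apart. H2afy2, which encodes the related macroH2A2, had 10.6 ± 1.61 CPM in KO and 11.2 ± 1.99 in WT (SD, n = 5 each; log2 fold change -0.08, edgeR adjusted p = 0.999). The other 8 histone variant genes on the list, among them H2afz, H3f3a and Cenpa, had log2 fold changes between -0.15 and 0.15 and none passed.

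Cxcl14 had 13.995, 24.1, 22.7, 22.5 and 23.4 CPM in KO 13, 14, 15, 16 and 18, and 48.5, 48.4, 48.7 and 62.1 CPM in WT 19, 20, 22 and 23. The library labelled WT 24 had 27.3 CPM, just above the highest KO library. The log2 fold change was -1.14 (SE 0.19), with an adjusted p of 0.146 in edgeR, 7.12e-06 in DESeq2 and 0.0397 in voom. The other 9 tested chemokines included Cxcl12, which recruits cells through CXCR4 and had 23.9 ± 0.609 CPM per kb in KO and 24.8 ± 0.721 in WT (SD, n = 5 each), and Ccl2, a monocyte attractant whose log2 fold change of -1.30 had an edgeR adjusted p of 0.999.

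**Figure D2:**
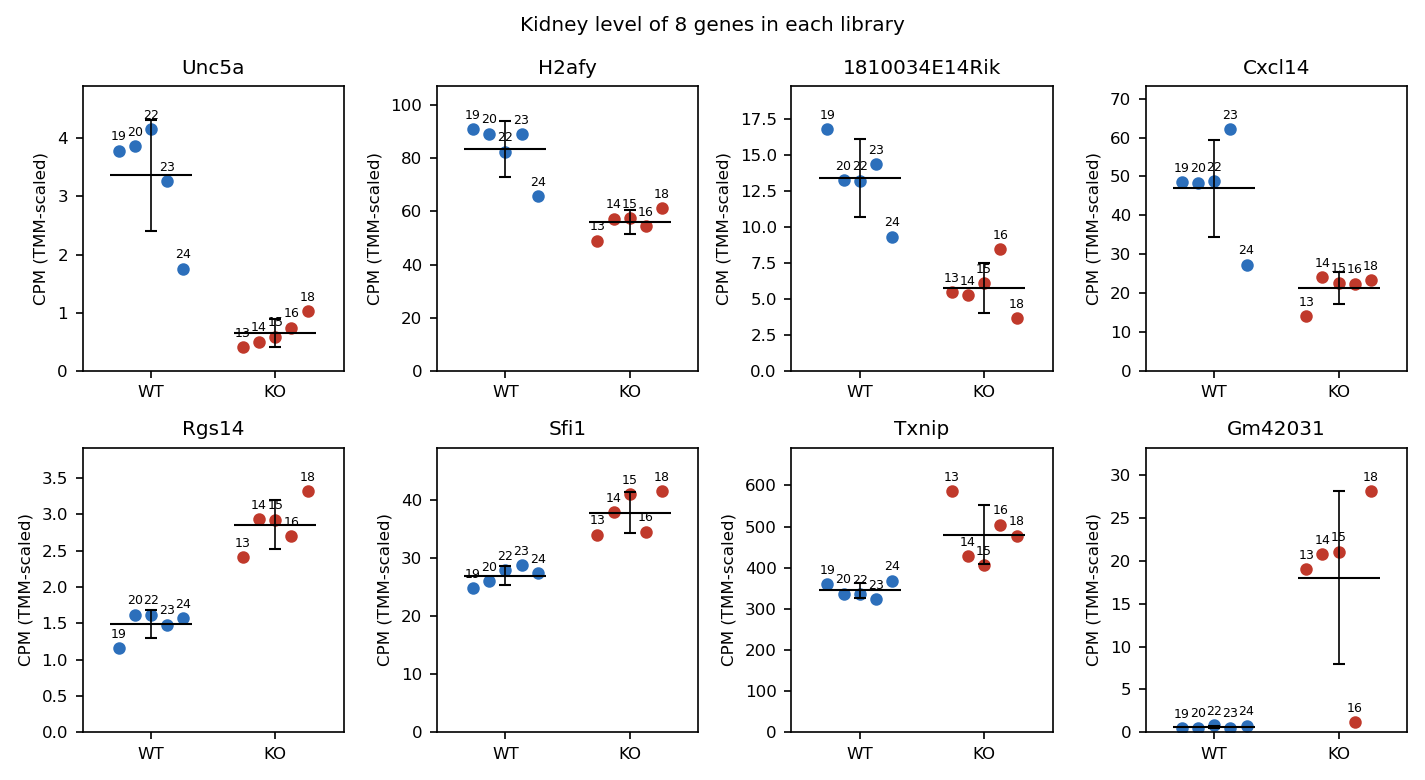
CPM of 8 genes in each kidney library, with mouse numbers beside the points, the group mean as a long bar and the SD as the error bar. KO libraries lie below WT for Unc5a, H2afy, 1810034E14Rik and Cxcl14, with the library labelled WT 24 the lowest WT library for each, and above WT for Rgs14, Sfi1, Txnip and Gm42031.

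Genes of chromosome 13, which carries H2afy, made up 9 of the 15 DESeq2 calls and 5 of the 7 voom calls. At an unadjusted p under 0.01 there were 25 of 661 tested genes on chromosome 13 (3.78%), 10 higher and 15 lower in KO, where the share over all genes was 0.527% (0.318% higher, 0.208% lower). Off chromosome 13 there were 66 of 16608 (0.397%). Within 1 Mb of H2afy 6 of 34 tested genes were under that threshold, from 1 to 5 Mb 1 of 58, from 5 to 10 Mb 8 of 70, from 10 to 20 Mb 8 of 139, and beyond 20 Mb 2 of 360. The 6 genes within 1 Mb, and so the 25, include H2afy itself and Gm47071, an antisense gene that overlaps it. The groups did not overlap for 22 genes of chromosome 13, H2afy among them, where 97 of all 17269 genes (0.562%) did not overlap. All KO libraries were lower for 0.272% of all genes and higher for 0.29%. In the 25 genes of chromosome 13, the library labelled WT 24 was the WT library closest to KO in 18, and KO 16 was the KO library closest to WT in 12 and KO 18 in 8. For the 66 genes elsewhere the library labelled WT 24 was the closest WT library in 20.

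**Figure D3:**
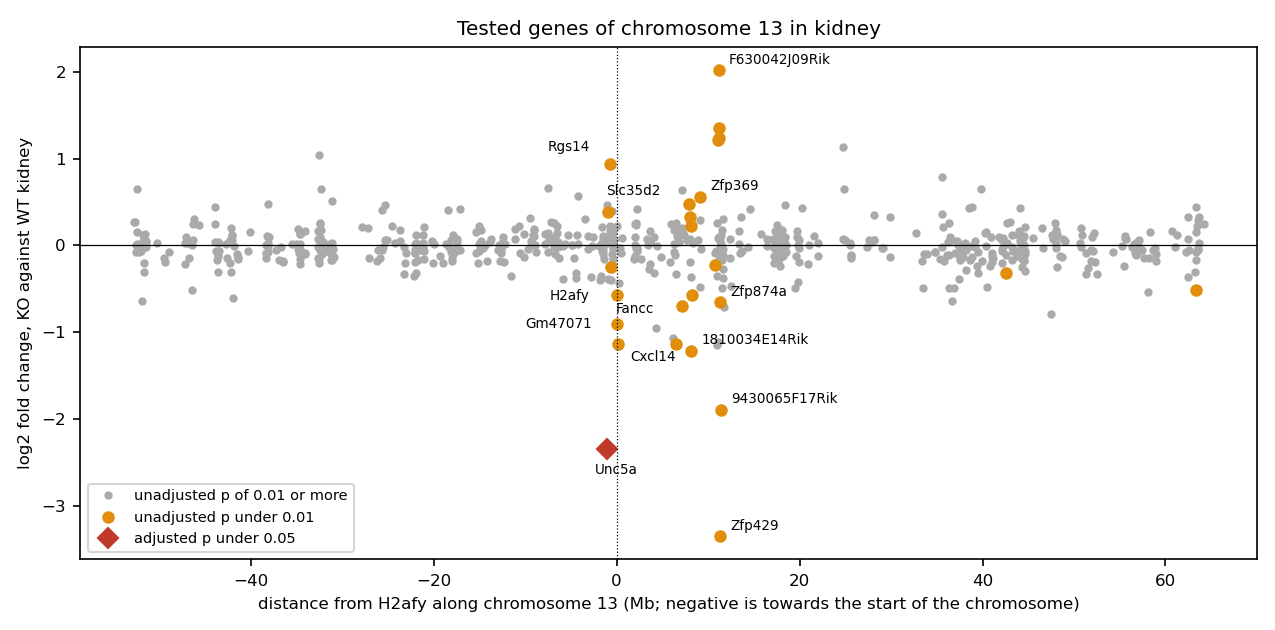
Log2 fold change, KO against WT kidney, of the 661 tested genes of chromosome 13, against their distance from H2afy in Mb. Of the 25 genes with an unadjusted p under 0.01, 23 lie within 20 Mb of H2afy, H2afy itself included, and Unc5a is the one gene with an adjusted p under 0.05.

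Next to H2afy, Rgs14, a regulator of G protein signalling at 0.689 Mb, was higher in KO. It had 2.41, 2.93, 2.92, 2.70 and 3.32 CPM in KO and 1.16, 1.62, 1.62, 1.48 and 1.57 in WT, in the order of the mouse numbers. The groups did not overlap, and the log2 fold change was 0.94 (SE 0.18; edgeR adjusted p = 0.166, DESeq2 adjusted p = 0.00155). Slc34a1, the main phosphate transporter of the proximal tubule, lies 0.658 Mb from H2afy and had 1041 ± 30.0 CPM per kb in KO and 1235 ± 74.6 in WT (SD, n = 5 each). Its groups did not overlap either, but its log2 value of -0.25 (SE 0.08) did not pass (edgeR adjusted p = 0.999). Fgfr4, a receptor for fibroblast growth factors, had a log2 fold change of 0.39, with KO 18 the highest library at 100.6 CPM (edgeR adjusted p = 0.999).

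A second group of genes with small p-values lay 6 to 12 Mb from H2afy. 1810034E14Rik, annotated as antisense and overlapping Cdc14b, had 5.48, 5.26, 6.07, 8.44 and 3.65 CPM in KO and 16.8, 13.2, 13.2, 14.3 and 9.30 in WT. The highest KO library, KO 16, was below the library labelled WT 24, which was the lowest of its group. The log2 fold change was -1.22 (SE 0.19; edgeR adjusted p = 0.131, DESeq2 adjusted p = 7.12e-06). Whether counting used strand is unknown here. Without strand, reads of 1810034E14Rik and Cdc14b, or of H2afy and its antisense gene Gm47071 (log2 fold change -0.91, edgeR adjusted p = 0.648), cannot be told apart.

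Zfp369, a zinc finger gene, had 19.5, 18.4, 18.4, 15.7 and 17.5 CPM in KO and 11.9, 10.4, 12.7, 11.02 and 14.7 in WT, with no overlap between the groups. Its log2 fold change was 0.56 (SE 0.11; edgeR adjusted p = 0.182, DESeq2 adjusted p = 0.00199). Slc35d2, a nucleotide sugar transporter of the Golgi, was also higher, with a log2 fold change of 0.48 (edgeR adjusted p = 0.233, DESeq2 adjusted p = 0.00785). Fancc, of the Fanconi anaemia complex of DNA repair, had a log2 fold change of -0.70 (edgeR adjusted p = 0.659), and Ctsl, the lysosomal protease cathepsin L, one of -0.57 (edgeR adjusted p = 0.999). Fancc overlapped between the groups, since the library labelled WT 24 at 7.58 CPM was below KO 15 and KO 18.

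Zfp429, another zinc finger gene, had 0.0317, 0.0715, 0.0366, 0.899 and 0 CPM in KO and 1.60, 1.99, 2.04, 3.08 and 1.27 in WT. KO 16 was the only KO library above 0.1 CPM. The fitted log2 fold change was -3.35 (edgeR adjusted p = 0.659, voom adjusted p = 0.0358), and it passed in edgeR without KO 16. Gm7240, a gene model at chr13:61804257-61861675, was removed by the filter: it had 0, 0, 0, 1 and 0 counts in KO and 38, 47, 36, 21 and 7 in WT. The library labelled WT 24 again held the fewest counts of its group. Without the filter Gm7240 passed in edgeR (adjusted p = 0.000207), as 1 of 4 genes of 26302 (0.0152%), all on chromosome 13. Zinc finger genes of this kind and gene models form families of similar copies, which may share reads.

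Away from chromosome 13, Sfi1, a centrosome gene on chromosome 11, was higher in KO. It had 34.1, 38.0, 41.1, 34.6 and 41.6 CPM in KO and 24.8, 26.04, 28.0, 28.9 and 27.4 in WT, and the groups did not overlap. The log2 fold change was 0.49 (SE 0.09), with an adjusted p of 0.146 in edgeR, 0.000317 in DESeq2 and 0.0382 in voom. Txnip, on chromosome 3, which binds thioredoxin and limits glucose uptake, had 587, 427, 406, 504 and 478 CPM in KO and 360, 337, 335, 323 and 368 in WT. Its groups did not overlap, and the log2 fold change was 0.48 (SE 0.10; edgeR adjusted p = 0.258, DESeq2 adjusted p = 0.00609).

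Gm42031, a long noncoding RNA of chromosome 8, had 18.998, 20.8, 21.0 and 28.1 CPM in KO 13, 14, 15 and 18, 1.17 in KO 16, and between 0.470 and 0.809 in WT. KO 16 was thus close to the WT level and far from the other KO libraries. The log2 fold change was 4.84 (SE 0.75), with an adjusted p of 0.189 in edgeR, 6.48e-10 in DESeq2 and 0.965 in voom, and it passed in edgeR without KO 16. The noncoding AC102496.1 of chromosome 18 had 37.0, 37.7, 42.8, 32.3 and 36.7 CPM in KO, and 15.9, 8.75, 8.72, 13.4 and 25.3 in WT. The library labelled WT 24 was the highest WT library, and the log2 value of 1.38 (SE 0.26) had an adjusted p of 0.308 in edgeR, 7.12e-06 in DESeq2 and 0.0141 in voom. The other DESeq2 calls off chromosome 13 were Gm42427 of chromosome 5 (log2 fold change 2.23, edgeR adjusted p = 0.146) and AC158975.2 of chromosome 18 (0.75, edgeR adjusted p = 0.363).

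Across 50 lists of kidney cell types and pathways, 687 of 727 genes were tested, and Unc5a was the single member that passed. At an unadjusted p under 0.05 there were 45 members (6.55%), where all genes gave 2.95%. All lists and members were chosen with earlier results of these data known, H2afy, Unc5a and Cxcl14 among them. The higher share is therefore not independent of these data. The lists are therefore described by counts and medians, beside an all-gene median of 0.0071 with 52.2% of genes above 0 and 47.8% below.

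Most tubule segments had median log2 fold changes close to that of all genes. The median was -0.01 for 17 genes of the early proximal tubule (8 higher, 9 lower), 0.01 for 10 of the thick ascending limb (6 higher, 4 lower), 0.03 for 11 of the distal convoluted tubule (9 higher, 2 lower), -0.04 for 13 of principal cells (6 higher, 7 lower) and 0.07 for 13 of intercalated cells (9 higher, 4 lower). Podocyte genes had a median of 0.09 (9 of 12 higher), which was 0.04 without KO 13. On leaving out 1 library the median ran from -0.06 to 0.02 for the early proximal tubule, from -0.04 to 0.05 for the thick ascending limb, from -0.05 (without KO 13) to 0.08 for the distal convoluted tubule, from -0.06 to 0.0056 for principal cells and from -0.0085 (without KO 14) to 0.09 for intercalated cells, so that each of these crossed 0. Scaled by library totals, the early proximal tubule also had a median above 0 (0.01). The last, S3 segment of the proximal tubule had the lowest segment median, -0.16, with 11 of 13 genes lower, among them the organic anion transporter Slc22a19 (log2 fold change -0.22) and the steroid hydroxylase Cyp7b1 (-0.23), both with an edgeR adjusted p of 0.999. KO 14 was the lowest library for S3 genes, at -0.50 against the median library, and without it the list median was -0.12. KO 18 was next at -0.19, but KO 13 was the highest of all libraries at 0.13, so the groups overlapped. Without KO 13 the list median was -0.22.

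Among the lists with at least 5 tested genes, glucocorticoid targets had the highest median. It was 0.33, with 14 of 15 genes higher in KO, 4 of them at an unadjusted p under 0.05. Tsc22d3, which encodes the glucocorticoid-induced leucine zipper, had 59.3, 50.5, 74.0, 70.3 and 76.7 CPM in KO and 36.7, 36.6, 35.9, 59.8 and 60.4 in WT (log2 fold change 0.53, SE 0.17, edgeR adjusted p = 0.999). KO 13 and KO 14 lay below WT 23 and the library labelled WT 24, so the groups overlapped. Klf9 (0.32), Ddit4 (0.50) and Cdkn1a (0.28) had the same adjusted p of 0.999. WT 19, 20 and 22 were the lowest libraries for the list, at -0.44, -0.38 and -0.20 against the median library. Without KO 16, which held the adrenal markers, the list median was 0.36. On leaving out 1 library it ran from 0.24 (without WT 20) to 0.50 (without the library labelled WT 24), and it was 0.62 without both KO 16 and the library labelled WT 24.

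Immediate early genes had the lowest median of these lists, -0.34, with 14 of 16 genes lower. Egr1, a zinc finger factor induced within minutes of a stimulus, had 8.58, 28.3, 10.7, 13.1 and 9.09 CPM in KO, 14.8, 11.1, 13.96 and 15.7 in WT 19, 20, 22 and 23, and 178 in the library labelled WT 24. Without that library the list median was 0.13, above 0. No member of the list passed.

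Interferon response genes had a median of 0.13, with 22 of 28 genes higher and 7 at an unadjusted p under 0.05, all higher. Mx1, an antiviral GTPase, had 1.68, 1.47, 2.16, 1.41 and 1.81 CPM in KO and 0.845, 1.28, 1.06, 1.24 and 0.822 in WT, without overlap (log2 fold change 0.69, SE 0.22, edgeR adjusted p = 0.999). Oas2 (0.57) and Oas1a (0.51), sensors of double-stranded RNA, and Irf7 (0.30), a factor that drives interferon genes, had the same adjusted p. KO 15 was the highest library for the list, at 0.26 against the median library, and without it the list median was 0.11. WT 23, at 0.08, lay above all the other KO libraries, and without WT 23 the list median was 0.19.

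Chaperones of the endoplasmic reticulum and genes of the unfolded protein response had a median of -0.20, with 17 of 18 genes lower and 5 at an unadjusted p under 0.05. Pdia6, a disulfide isomerase, had 167, 183, 191, 191 and 177 CPM in KO and 207, 212, 198, 222 and 207 in WT, without overlap (log2 fold change -0.20, SE 0.07, edgeR adjusted p = 0.999). Hspa5, the chaperone BiP, had 772 CPM in WT 23 and 767 in the library labelled WT 24, above all other libraries, which lay between 302 and 658. The list level was highest in WT 23, at 0.40, and lowest in KO 18, at -0.38. The list median was -0.13 without WT 23, the smallest size on leaving out 1 library, and -0.28 without KO 16, the largest.

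Genes of cholesterol synthesis and uptake had a median of -0.11, with 21 of 23 lower and 5 at an unadjusted p under 0.05. Cyp51, a demethylase of the pathway, had 230, 165, 235, 197 and 154 CPM in KO and 259, 293, 233, 305 and 281 in WT, where WT 22 lay below KO 15 (log2 fold change -0.48, SE 0.12, edgeR adjusted p = 0.813). On leaving out 1 library the list median ran from -0.16 (without WT 22) to -0.08 (without the library labelled WT 24). The library labelled WT 24 was the highest for the list, at 0.21 against the median library. The other WT libraries lay between 0.0036 and 0.06, and the KO libraries between -0.07 and -0.03. Without KO 16 and the library labelled WT 24, the list median was -0.05.

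Genes of mitochondrial energy metabolism had medians slightly below that of all genes. Of 36 nuclear-encoded genes of the respiratory chain and ATP synthase 31 were lower, with a median of -0.06 and a range of -0.21 to 0.12, and none was at an unadjusted p under 0.05. Scaled by library totals instead of TMM, 24 were lower and 12 higher. The median was also -0.06 for 22 genes of the TCA cycle (17 lower) and 24 of fatty acid oxidation (17 lower), -0.05 for 9 of ketone body metabolism (8 lower) and -0.10 for 13 genes of the mitochondrial genome (11 lower). The mitochondrial genome gave 7.93% ± 1.53 of counts in KO and 8.39% ± 0.913 in WT (SD, n = 5 each; difference -0.468 percentage points, two-sided exact permutation p = 0.571 over 252 arrangements). Without KO 18, which had the lowest share at 5.96%, the difference was 0.0228.

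Single libraries moved these list medians by more than 1.5 times. The median of the nuclear-encoded respiratory chain ran from -0.09 (without WT 22) to -0.02 (without WT 19), and that of the TCA cycle from -0.08 (without KO 16) to -0.03 (without WT 19). For fatty acid oxidation it ran from -0.09 (without KO 13) to -0.02 (without the library labelled WT 24), for ketone body metabolism from -0.11 to -0.01 with the same libraries left out, and for the mitochondrial genome from -0.17 (without KO 13) to -0.02 (without KO 18). The nuclear-encoded respiratory chain genes are short, with a median exon length of 1950 bases, where it was 4205 over the 14532 genes. Their level against the median library was -0.22 in KO 13, -0.11 in KO 16 and -0.10 in WT 22, which had a positive rho with exon length. It was 0.02 in the library labelled WT 24, which had a positive rho as well. Among libraries with a negative rho it was 0.19 in WT 19, which had a rho of -0.25, and 0.05 in KO 14. In the others of these it was 0.03 in KO 15, 0.02 in KO 18, 0.04 in WT 20 and -0.03 in WT 23. The part of gene length in the list median was not tested.

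Genes around the ligand of macroH2A1.1 had medians close to that of all genes. The median was 0.0007 for 25 genes of ADP-ribosylation and sirtuins (13 higher, 12 lower, range -0.10 to 0.16) and -0.0028 for 20 of NAD synthesis and breakdown (9 higher, 11 lower). The largest value in the NAD list was 1.45 for Tdo2, which degrades tryptophan (SE 0.44, unadjusted p = 0.00481, edgeR adjusted p = 0.999), and it was the 1 member of both lists at an unadjusted p under 0.05. Tdo2 was tested in 18 of the 20 alternative analyses, being removed by the filter on low counts in the rest, and passed in none. On leaving out 1 library the median ran from -0.01 to 0.02 for the first list and from -0.03 to 0.02 for the second, which was also above 0 (0.02) when scaled by library totals. Over all genes the SE of a fold change had a median of 0.133 (log2).

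**Figure D4:**
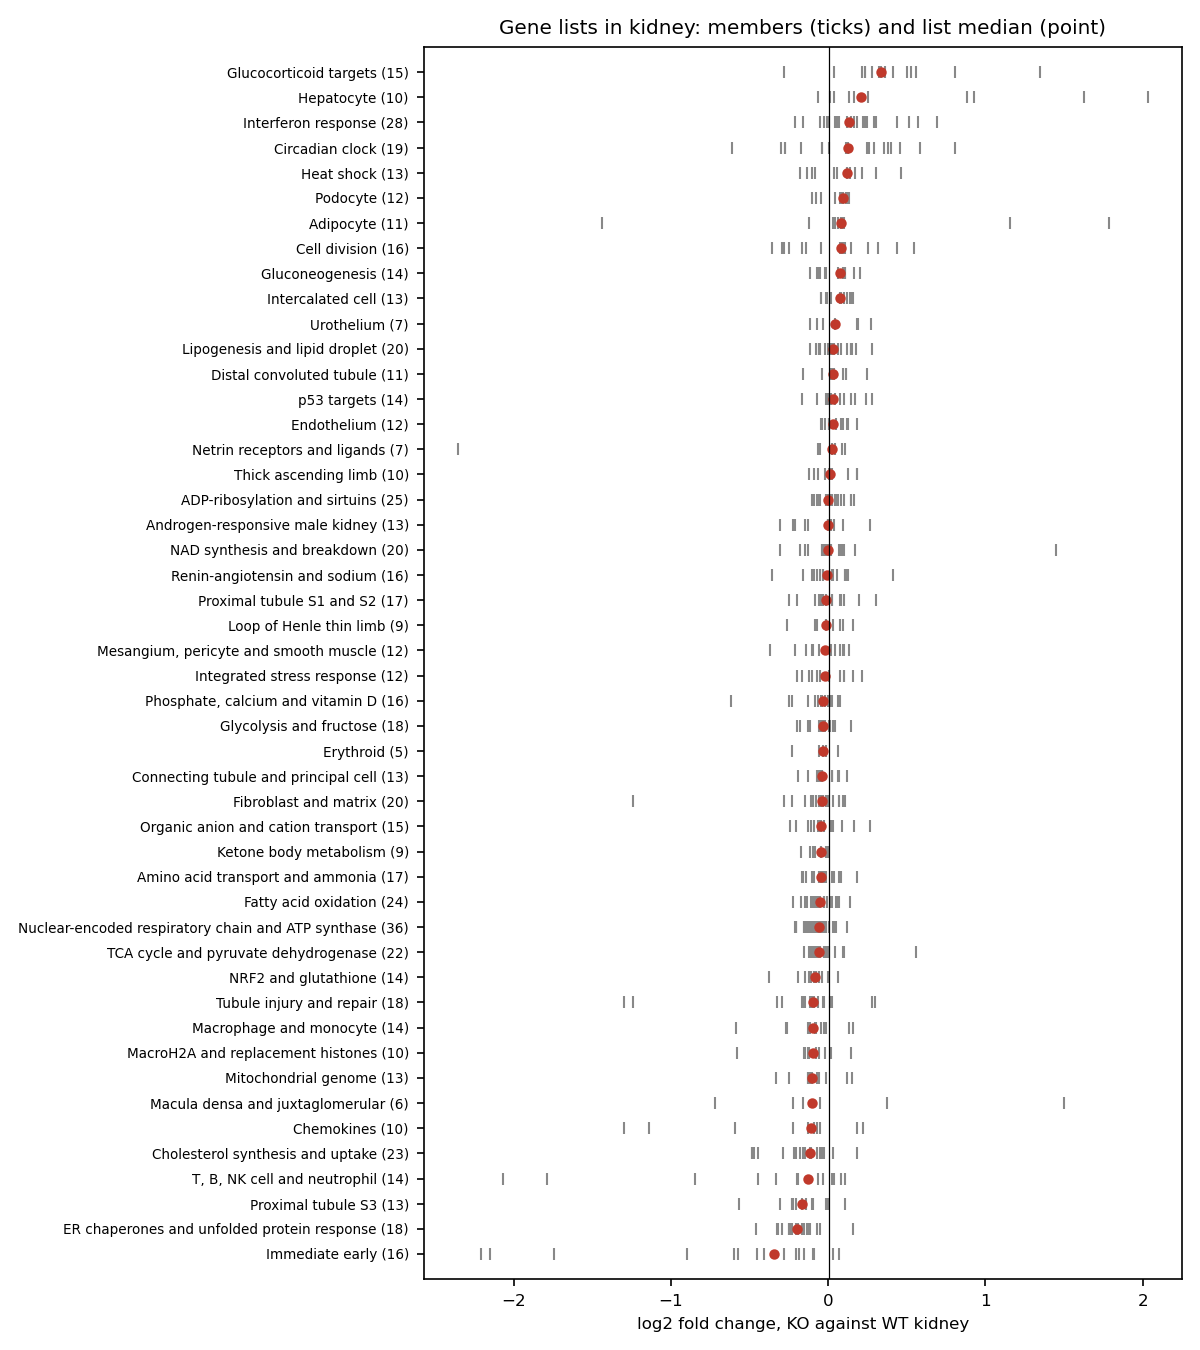
Log2 fold change, KO against WT kidney, of the tested members of each list with at least 5 of them (ticks) and the list median (point), with the number tested in brackets and the all-gene median as the vertical line. Glucocorticoid targets have the highest median (0.33) and immediate early genes the lowest (-0.34).

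Among lists for other cell types, macrophage and monocyte genes had a median of -0.10 (12 of 14 lower), and -0.01 without WT 23, which was the highest library for the list. Genes of lymphocytes and neutrophils had a median of -0.13 (9 of 14 lower), from -0.22 without WT 22 to -0.07 without KO 13, and S100a8, a neutrophil protein, ranged from 0.430 to 1.04 CPM in KO and from 0.595 to 6.19 in WT (log2 fold change -2.07, edgeR adjusted p = 0.999), with WT 23 the highest. The 11 adipocyte genes summed to between 403 and 1029 CPM in KO and 477 and 954 in WT. Haemoglobin genes gave 0.146% ± 0.0364 of counts in KO and 0.147% ± 0.0170 in WT (SD, n = 5 each; two-sided exact permutation p = 0.992).

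**Figure D5:**
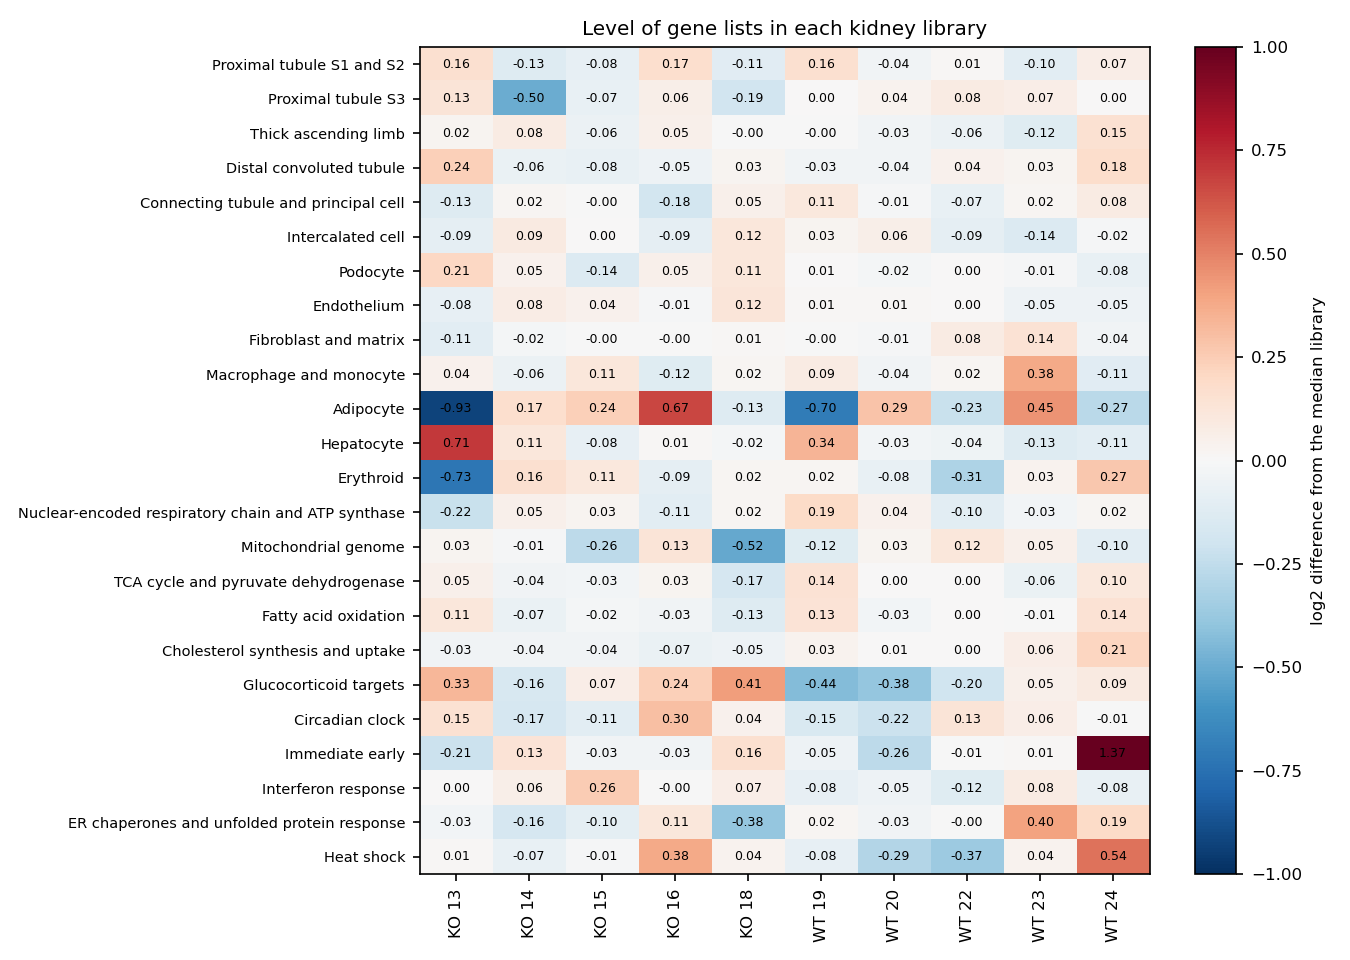
Level of 24 gene lists in each kidney library, as the median over members of log2(CPM + 0.5) minus the gene's median over the 10 libraries (red above, blue below). Immediate early genes are highest in the library labelled WT 24 and hepatocyte genes in KO 13, and glucocorticoid targets are lowest in WT 19 and WT 20.

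The livers of mice with these numbers allow the effect in kidney to be set beside that in liver, with 5 KO and 4 WT libraries. No gene of 18549 (0.0%) passed the edgeR test of the difference between liver and kidney, 765 had an unadjusted p under 0.05, and DESeq2 called 8. H2afy had a log2 fold change of -0.58 in kidney and -0.61 in liver, and Zfp369 one of 0.56 and 0.57. Unc5a had -2.35 in kidney and -1.62 in liver (difference 0.74, SE 0.47, edgeR adjusted p = 1). Cxcl14 had -1.14 in kidney and 1.31 in liver, which is 2.46 apart (SE 0.62). That gap had an edgeR adjusted p of 0.84 and passed without the libraries of mouse 24, whose kidney library was set apart partly by Cxcl14.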

How the data were processed

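Poly(A) RNA of whole kidney was sequenced in 10 libraries. The values are raw counts per gene, deposited by the authors without normalization. Per the submitters' processing notes, Trim Galore, STAR, featureCounts and DESeq2 were used with GRCm38; versions and strand setting were not given in the sources used here. Of 26506 gene identifiers, 26417 matched GENCODE M21, which gave symbols, positions and exon lengths. In this work, kidney libraries were tested with edgeR 4.0.16 (R 4.3.3; robust quasi-likelihood test, TMM, filterByExpr at a minimum count of 10, Benjamini-Hochberg over 17269 genes, threshold 0.05). DESeq2 1.42.0, limma 3.58.1 voom with sample weights, other scalings and filters, a fit of all libraries and leaving out libraries were the alternatives. The difference from liver was an edgeR interaction over 19 libraries. List levels used a pseudocount of 0.5. The tests were tried on simulated data. Named genes were H2afy, H2afy2, Umod, Lrp2, the 20 smallest p-values, DESeq2 and voom calls, the 2 smallest p-values of each list, and genes within 10 Mb of H2afy at p under 0.01; other genes named were chosen after their values were seen. Members and lists were chosen with earlier results of these data known.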

Additional observations from a re-analysis of the deposited data

Results flagged for a closer look

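Over the genes named here, 23 of 238 groups of 5 libraries held a highest or lowest library far from the other 4, by a gap rule that chance meets in about 1 in 20 groups. KO 18 held 7 of them: Fgfr4 at 100.6 CPM, Aqp6, a channel of intercalated cells, at 92.5, Col3a1 at 44.9, Fh1 at 171.5, Suclg1 at 265.7, Etfa at 289.4 and Fosb at 1.03. In KO 13 there were 4: Cxcl14 at 13.995 CPM, Cdc14b at 38.7, and the hepatocyte genes Apoa1 at 5.38 and Mup3 at 6.30. KO 16 stood apart for Akr1b7 at 19.4 CPM, F630042J09Rik at 0.469 and Zfp429 at 0.899, and KO 14 for Cyp7b1 at 97.8 and Egr1 at 28.3.

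The library labelled WT 24 held 5: Fancc at 7.58 CPM, Ptgs2 at 1.08, Acadm at 1059, Fosb at 8.85 and Egr1 at 178. WT 19 stood apart for Apoa1 at 1.88 CPM and WT 22 for Ppp1r1a at 179.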

How the results depend on the processing

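The count of genes called in kidney was 1 with edgeR's main settings, with DESeq2's size factors, with library totals, with a filter of 1 CPM and without mitochondrial and haemoglobin genes. It was 4 with no filter, 15 with DESeq2, 7 with limma voom, 3 with all libraries in 1 fit, 2 with no robust estimation, and from 1 to 10 on leaving out 1 library (10 without KO 16, 7 without the library labelled WT 24, 2 without KO 13, 14, 15 or 18), and 12 without KO 16 and WT 24. The call of Unc5a was in every one of these. With library totals, genes at an unadjusted p under 0.05 were higher in KO in 75.4%, against 58.7% with TMM. Of 117 named genes, 112 kept their sign in every alternative. Most of these genes were chosen by small p-values in the same libraries, so the kept signs give no separate support. On leaving out 1 library, the log2 fold change of Umod ran from -0.151 to 0.0565 (above 0 without WT 24), of Lrp2 from -0.0075 to 0.154 (below 0 without KO 13), of Mup3 from -0.43 to 2.34 (below 0 without KO 13), of Hbb-bs from -0.122 to 0.0644 (above 0 without KO 13 or WT 24) and of Egr1 from -2.17 to 0.0034 (above 0 without WT 24). Without KO 16 and WT 24 it was 0.0480 for Umod, 0.0332 for Hbb-bs and 0.0238 for Egr1, and with voom 0.0343 for Hbb-bs and -0.456 for Mup3. The difference in the share of counts from the mitochondrial genome ran from -0.873 to 0.0228 percentage points (above 0 without KO 18), and that in the share of counts from haemoglobin genes from -0.0076 to 0.0141 (above 0 without KO 13, KO 16 or WT 24). The cause was not tested.

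The difference between liver and kidney gave 0 calls in edgeR, 8 with DESeq2, 0 with DESeq2's size factors, and from 0 to 3 on leaving out 1 mouse. With the mouse number as a replicate block it gave 0 calls (680 genes at an unadjusted p under 0.05, 765 without the block). Deviations of kidney and liver with 1 number correlated at 0.0493 to 0.311 over 9 pairs, 7 of them above 0.1, and 6 of 9 correlated best with their own number. No paired analysis was possible between KO and WT kidney because the groups share no mouse number. Depth limits genes with few counts, and the filter removes some of them by its rule on group size. It asks for a minimum level in as many libraries as the smallest group holds, which is 5 in the main fit. Gm7240, with at most 47 counts in a library and 7 in the library labelled WT 24, did not pass it there. With all libraries in 1 fit Gm7240 passed the filter and was called. The same held on leaving out any KO library or the library labelled WT 24, where the filter asks for fewer libraries. Gm7240 is therefore among the added calls there.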
